A study of Canis lupus familiaris with 21 samples.

Results

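Lymphocyte-enriched tissue of canine cutaneous histiocytoma (CCH) was compared between regression stages 3 and 2. In CCH, antigen-presenting cells of the Langerhans type form a nodule in the skin, and lymphocytes enter it while it shrinks without treatment. The comparison took the 11 of 21 libraries whose titles name lymphocyte-enriched tissue, 6 from stage 2 (group 2b) and 5 from stage 3 (group 3), and all 800 probes of the nCounter Canine IO Panel. This panel captures RNA with color-coded probes and counts the molecules without amplification. The tissue was formalin-fixed and paraffin-embedded (FFPE) and came from spontaneous, untreated tumors of privately owned dogs. Of the group 2b libraries, 2 came from 1 dog each, 3 were pools of 4 dogs and 1 was a pool of 3 dogs, together 17 dogs aged 0.3 to 6 years by the labels where ages were given (1 age in the pool of replicate 5 is given differently in the study's supplement). The 5 group 3 libraries came from 1 dog each, aged 1.5, 9, 2.5, 2 and 7 years in replicates 1 to 5. Group 2b areas were chosen for their lymphocytes under the microscope and punched into new paraffin blocks. The methods describe no such step for group 3, and a second label calls that material tumor tissue, so stage, tissue preparation and pooling cannot be told apart. The group 3 dogs also included the oldest.

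Lymphocytes that enter a regressing tumor include T cells, which carry the CD3 complex and kill through granzymes and perforin, and B cells, which carry CD20 and the CD79 chains of the B cell receptor. B cells can gather in follicles, which are held together by the chemokine CXCL13, its receptor CXCR5 and stromal cells rich in complement receptors. The roles of genes given below are those known from human and mouse.

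Depth and RNA quality differed between the groups by no more than the spread between libraries. Estimated counts per library, taken from the steps of the deposited normalized values, summed to between 945399 and 1315188, though whole counts were recovered beyond doubt in some libraries only. Library medians over the 800 probes averaged 348 ± 12.4 normalized counts for group 2b (SD, n = 6) and 341 ± 16.95 for group 3 (SD, n = 5), which differed by -6.34 (two-sided exact permutation test over 462 splits, p = 0.442). DV200, the percentage of RNA fragments over 200 nucleotides, differed by -1.47 points (p = 0.221 by the same exact test). These are the values of the labels, and for group 3 replicate 5 the study's supplement gives another DV200, so that the size of this difference is uncertain. On the deposited scale, the mean level of T cell markers was above the tumor cell-rich level in every library, while that of a B cell list was not. The mean log2 level of 17 T cell probes lay between 8.5 and 9.70 in group 2b and between 8.80 and 9.60 in group 3, above all 10 libraries of the tumor cell-rich groups 1 and 2a (4.63 to 8.21). The same mean over 19 B cell probes lay between 8.98 and 9.62 in group 2b, between 7.65 and 9.33 in group 3 and between 7.03 and 7.68 in groups 1 and 2a. On this mean, the lowest group 3 library thus lay in the range of tumor cell-rich tissue, but single B cell genes differed in this. BTK was about as high in group 1 (862 to 1425) as in group 2b (860 to 1415). CD79A was at 672 to 2042 in group 3, above groups 1 (49.3 to 354) and 2a (136 to 323). CD79B, at 24.8 to 481 in group 3, reached down into the range of group 2a (11.2 to 26.1). With equal medians, the T cell mean of group 2b replicate 1 was 8.22, below group 1 replicate 3 at 8.30. On that scale the B cell means of group 3 replicates 1, 2 and 5 were 7.29, 7.61 and 7.41. Those of groups 1 and 2a then lay between 7.48 and 8.07. In tissue extracts, fewer cells of a type and less RNA per cell cannot be told apart.

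The differences with the smallest p were mostly in genes of B cells, at lower levels in group 3, and for most of the 800 probes no difference was resolved. The fitted log2 difference, group 3 minus group 2b on log2 of the normalized count plus 1, was above 0 for 406 probes and below 0 for 394, with a median of 0.01. With each library shifted to an equal median the median difference was 0.03. Of the 800 probes, 1 was called (0.125%) at a limma adjusted p of at most 0.05, and it was lower in group 3. Before adjustment, p was under 0.05 for 50 probes (6.25%), 33 of them lower (4.12%) and 17 higher (2.12%), while 800 tests with no true difference give 40 on average. Of the 20 probes with the smallest p, 17 were lower in group 3. After the shift to equal medians the counts were again 1 called and 50 with an unadjusted p under 0.05, of which 29 were lower (3.62%) and 21 higher (2.62%). The shift left 28 of the 33 lower and 16 of the 17 higher probes past the unadjusted threshold.

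**Figure D1:**
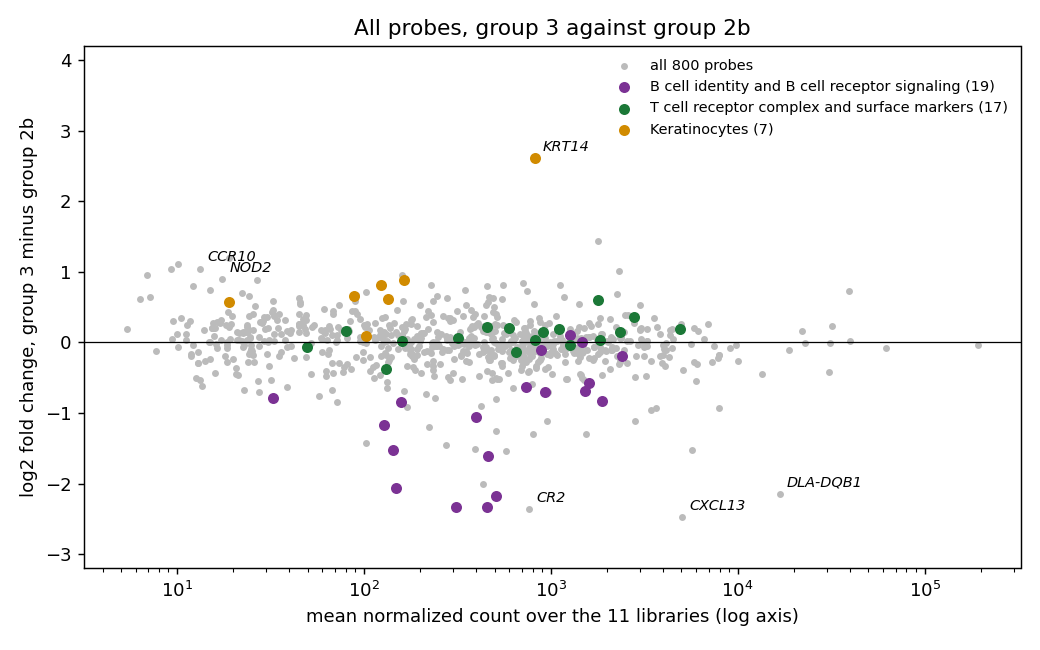
Each point is 1 of 800 probes, with its mean normalized count over the 11 lymphocyte-enriched libraries (log axis) against the log2 fold change of group 3 minus group 2b. The probes of the B cell list reach down to -2.33, the T cell probes lie between -0.37 and 0.60, and KRT14 stands at 2.61.

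The called probe was CR2, complement receptor 2 (CD21), which is carried by mature B cells and follicular dendritic cells. CR2 was at 692, 1065 and 1792 normalized counts in group 2b (lowest, median and highest of 6). In group 3 it was at 95.5, 165, 898, 318 and 86.4 in replicates 1 to 5. Replicate 3 lay inside the range of group 2b and the other 4 libraries lay below it, so that the groups overlapped in this library alone. CR2 fell by 2.36 on the log2 scale (SE 0.47, 95% interval -3.34 to -1.39, limma adjusted p = 0.0495), and by 2.34 with equal medians (adjusted p = 0.0468). In replicates 1 and 5 it lay within the range of tumor cell-rich tissue (30.7 to 100.1 over groups 1 and 2a). The call was at the edge of the threshold. It was lost when any 1 of the 11 libraries other than group 3 replicate 3 was left out (adjusted p from 0.0569 to 0.255) and when only the 11 lymphocyte-enriched libraries were fitted (adjusted p = 0.173), where 0 probes were called in limma and 75 (9.38%) had an unadjusted p under 0.05, 48 lower (6%) and 27 higher (3.38%).

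CR1L, a complement receptor 1-like gene, followed the same order of libraries. It was at 405, 492 and 1250.2 in group 2b, and at 90.5, 99.5, 561, 173 and 70.2 in group 3 (log2 difference -2.0, SE 0.49, limma adjusted p = 0.0895).

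Of the 33 probes that were lower at an unadjusted p under 0.05, 19 were in the lists of B cell, follicle or plasma cell genes, as were 0 of the 17 higher ones. Together these lists hold 48 of the 800 probes, and they were chosen with earlier results of these data known. Of 19 measured members of the B cell list, 14 had an unadjusted p under 0.05 with lower values in group 3 and 0 with higher values, and their median log2 difference was -0.83 against 0.01 over all probes. None of the 19 was called after adjustment over the 800 probes, since CR2 stands in the follicle list. The signaling chain CD79B was at 314, 369.8 and 741 in group 2b and at 44.6, 60.8, 481, 123 and 24.8 in group 3 (-2.33, SE 0.52, adjusted p = 0.0562 in limma). Again a single library, group 3 replicate 3, stood inside group 2b. MS4A1, which encodes the B cell antigen CD20, was at 479, 578 and 1192 in group 2b and at 60.8, 84.0, 1039.5, 211 and 54.0 in group 3 (-2.18, SE 0.58, limma adjusted p = 0.127). CD79A, the partner chain of CD79B, differed less, with 1366, 1739 and 2656 in group 2b and 672, 1025, 2042, 1379 and 826 in group 3. Its log2 difference was -0.69 with a 95% interval from -1.52 to 0.14.

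**Figure D2:**
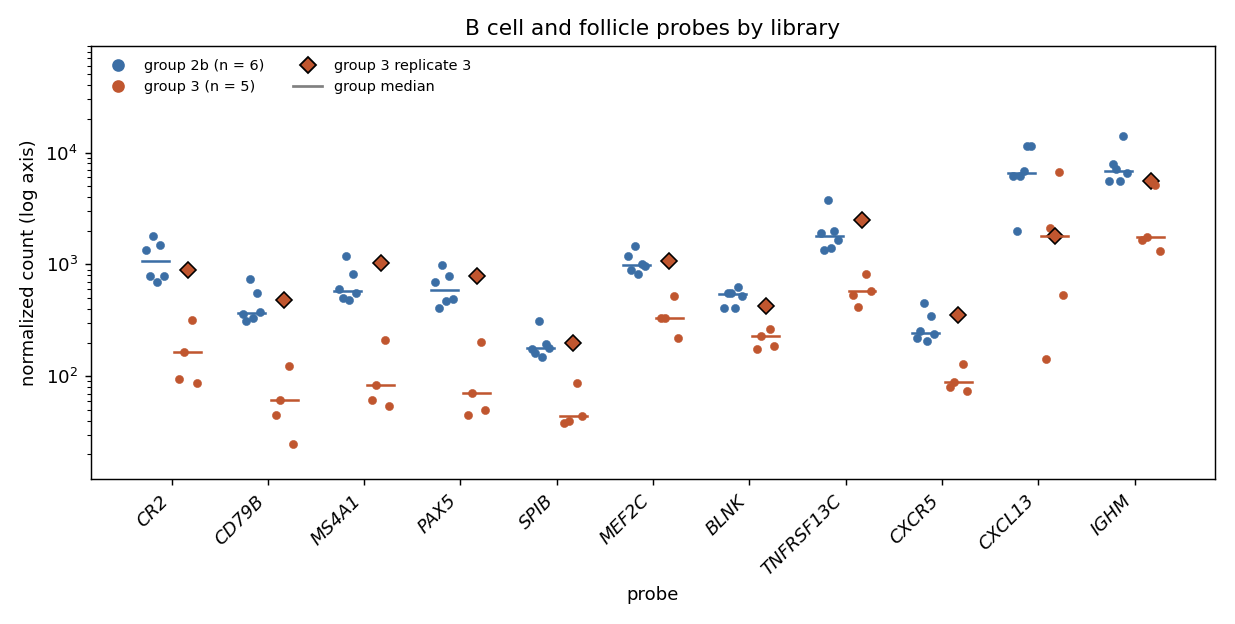
Normalized counts (log axis) of 11 B cell and follicle probes in each library of group 2b (blue, n = 6) and group 3 (orange, n = 5), with a line at each group median and a diamond for group 3 replicate 3. The diamond lies among the group 2b libraries for 10 of the probes and just below them for CXCL13, while the other group 3 libraries lie mostly below group 2b.

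Transcription factors of B cells showed the same arrangement. PAX5, which maintains B cell identity, was at 405, 596 and 997 in group 2b and at 44.6, 70.8, 784, 202 and 49.7 in group 3 (-2.33, SE 0.66, limma adjusted p = 0.142). SPIB, an ETS family factor of B cells, was at 148, 178 and 311 in group 2b and at 38.5, 39.8, 199, 86.4 and 44.3 in group 3 (-1.53, SE 0.40). MEF2C, a factor active in B cells and also in muscle and endothelium, was at 815, 989 and 1471 in group 2b and at 329.9, 329.6, 1076, 518 and 218 in group 3 (-1.29, SE 0.29, limma adjusted p = 0.0562). For all 3 factors, 4 group 3 libraries lay below the lowest group 2b library. The coactivator POU2AF1 and its partner POU2F2 differed by -1.61 and -0.84.

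Kinases and adaptors below the B cell receptor differed by less. The adaptor BLNK was at 407, 539 and 635 in group 2b and at 175, 228, 427, 264 and 188 in group 3 (-1.06, SE 0.28, limma adjusted p = 0.127). The kinases BLK, BTK and SYK differed by -1.17, -0.71 and -0.58. SYK, which other blood cells also use, was at 1402 to 2316 in group 2b and at 1035 to 1548 in group 3. The inhibitory receptor CD22, the Fc receptor-like FCRL2 and CD180, a Toll-like receptor relative on B cells, differed by -0.83, -0.79 and -0.63. None of these was called, and each had an unadjusted p under 0.05. BTK and CD180 were also high in tumor cell-rich tissue. The medians of BTK were 1153, 1103, 1116 and 604 in groups 1, 2a, 2b and 3. Those of CD180 were 1084, 1260, 849 and 559 in the same order. BLK was low there, with medians of 31.2, 30.9, 153 and 67.5.

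Follicle genes differed in part, while the study counts follicle-like structures of lymphocytes among the features of stage 3. The median of the follicle and homing list was -0.16. Of its 21 measured members, 4 had an unadjusted p under 0.05, all with lower values in group 3, against 4.12% of all probes. These were CR2, the B cell homing receptor CXCR5, the survival receptor TNFRSF13C (BAFF receptor) and CXCL13. CXCR5 was at 205, 245 and 452 in group 2b and at 79.4, 89.6, 353, 129 and 74.5 in group 3 (-1.19, SE 0.32, limma adjusted p = 0.127). TNFRSF13C was at 1338, 1779 and 3803 in group 2b and at 532, 416, 2497, 827 and 576 in group 3 (-1.30, SE 0.35, limma adjusted p = 0.127). CXCL13 spread over the widest range, from 1989 over 6539.8 to 11388 in group 2b and at 144, 2137, 1799, 6767 and 533 in group 3. Here replicate 4, not replicate 3, had the highest level of group 3, and the difference of -2.47 had a wide error (SE 0.95, limma adjusted p = 0.485). CCL19 and CCL21, the chemokines of T cell zones, differed by 0.63 and 0.29 with intervals that held 0 (-0.52 to 1.79 and -0.73 to 1.31). The immunoglobulin heavy chain IGHM was at 5546, 6892 and 14078 in group 2b and at 1667, 1763, 5549, 5136 and 1323 in group 3 (-1.53, SE 0.61). IGHG, the IgG heavy chain of switched B cells and plasma cells, differed by -0.96 with an interval from -2.94 to 1.03, and PRDM1, a regulator of plasma cells and of effector T cells, by 0.63 (-0.04 to 1.31).

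Group 3 was not uniform in its B cell genes. For all 19 probes of the B cell list, replicate 3 lay within the range of group 2b, compared with 514 of all 800 probes. The other 4 libraries all lay below the lowest group 2b library for 12 of the 19, compared with 36 of 800. This division of group 3 was seen in the values and is given as a description. Without replicate 3, 1 of 11 fits that each left out a library, 18 probes were called (2.25%), 17 lower (2.12%) and 1 higher (0.125%). The lower ones included CR2 (-2.89), CD79B (-2.96), MS4A1 (-2.89) and PAX5 (-3.01), with limma adjusted p from 0.000108 to 0.00306, and the higher one was ITGA2 (1.06, limma adjusted p = 0.0311). Each of the other 10 fits called 0 probes. The B cell list median ranged from -1.11 to -0.74 over the 11 fits. The pools of group 2b also bear on these values. Without the 4 pools, 0 probes were called in limma, 26 (3.25%) had an unadjusted p under 0.05, of which 19 were lower (2.38%) and 7 higher (0.875%), and the B cell list median was -0.79 with 6 of 19 members lower past the unadjusted threshold. With libraries weighted by their number of dogs, 9 probes were called (1.12%), all lower, among them CR2, CD79B, CR1L, MEF2C, BLNK, MS4A1, PAX5 and SPIB. In that fit 66 probes (8.25%) had an unadjusted p under 0.05, 42 of them lower (5.25%).

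Other genes at the lower end had uses in B cells and beyond. BTLA, an inhibitory receptor of B and T cells, differed by -1.46 (SE 0.48), and DLA-DOB, an MHC class II chain of B cells, by -1.11 (SE 0.46). CIITA, the activator of MHC class II genes, was at 2903 to 3487 in group 2b and at 1955, 2109, 3372, 2272 and 1957 in group 3 (-0.49, SE 0.19). CD40LG, the helper T cell ligand that B cells answer to, was at 49.2, 68.6 and 95.7 in group 2b and at 24.8, 53.1, 62.6, 46.4 and 28.1 in group 3 (-0.75, SE 0.25, limma adjusted p = 0.253). The adhesion protein ICAM2 was at 556 to 728 in group 2b and at 326, 345, 566, 392 and 227 in group 3 (-0.81, SE 0.24). The complement protein C3 was at 2789 to 4528 in group 2b and split in group 3, at 1116, 772 and 1189 in replicates 1, 2 and 5 and at 3234 and 3372 in replicates 3 and 4. None of these was called.

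The genes of the T cell receptor complex and T cell surface had intervals that held 0. Of 17 measured members of the T cell list, 0 had an unadjusted p under 0.05 in limma, and the median difference was 0.14, beside 6.25% of all probes past that threshold. The median depended on the make-up of group 2b, at 0.37 without the pools and -0.04 without the single dogs. CD3E, a chain of the T cell receptor complex, was at 3446, 4527 and 6133 in group 2b and at 6134, 5024, 3853, 6011 and 5159.9 in group 3. The groups overlapped over almost their whole range. Its difference was 0.19, with a 95% interval from -1.31 to 1.68 when all 21 libraries set the spread, and from -0.18 to 0.56 when only the 11 lymphocyte-enriched libraries did. Of the 17 T cell probes, 5 had the whole interval within 1 log2 unit of 0 over all 21 libraries, and 14 over the 11. CD8A, the marker of killer T cells, was at 1665, 2061 and 3739 in group 2b and at 4519.6, 3226, 1384, 3639 and 3252 in group 3. Its difference was 0.36 (interval -1.07 to 1.78, or -0.34 to 1.05 over the 11 libraries). CD4 was at 464, 693 and 767 in group 2b and at 938, 318, 608, 996 and 378 in group 3 (-0.14, interval -1.01 to 0.74), so that the group 3 libraries lay on both sides of group 2b. FOXP3, the factor of regulatory T cells, was at 15.2 to 29.97 in group 2b and at 12.4 to 33.5 in group 3.

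**Figure D3:**
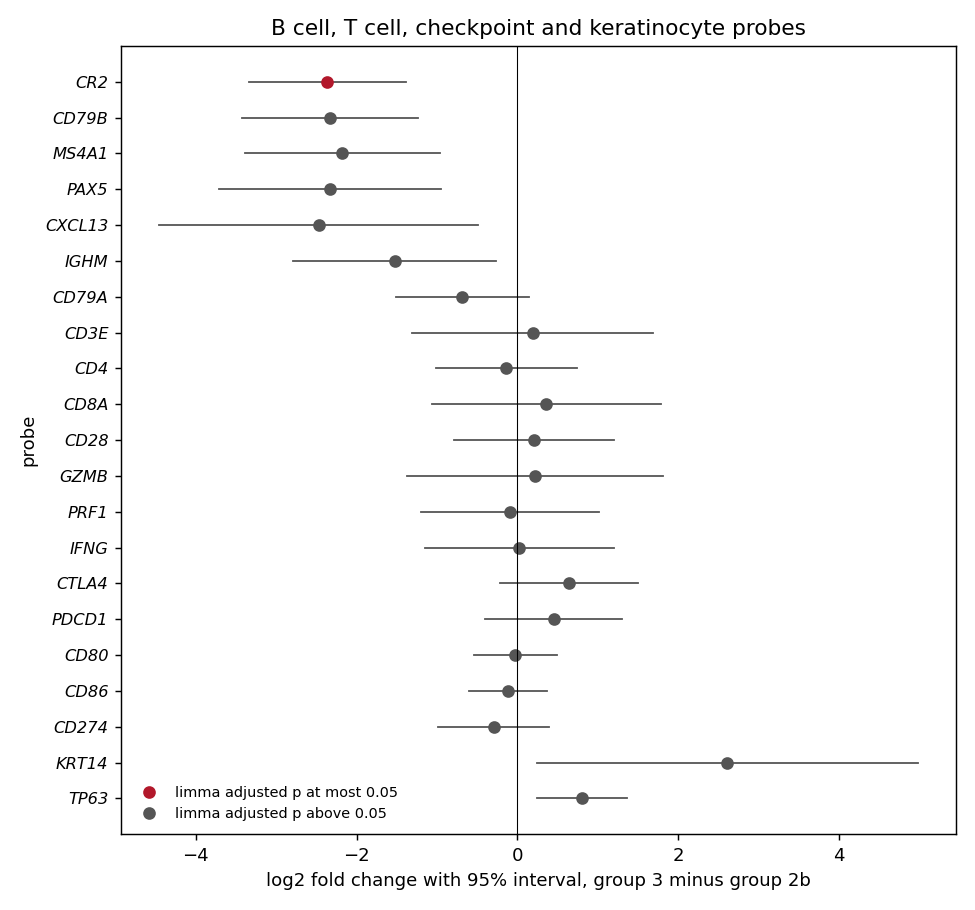
Log2 fold change of group 3 minus group 2b (point) with its 95% interval (line) for 21 named probes, fitted over all 21 libraries. CR2 (red) is the probe with a limma adjusted p of at most 0.05, and the intervals of the T cell, cytotoxic and checkpoint probes all hold 0.

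Genes of killing were on both sides of 0. Of 18 measured members of the cytotoxic list, 0 had an unadjusted p under 0.05, beside 6.25% of all probes, and the median was 0.06. With equal medians 1 member was past that threshold, again beside 6.25% of all probes. It was KLRK1, the receptor NKG2D of killer cells, which is named here for that reason. GZMB, which encodes granzyme B, was at 1263, 3092 and 5844 in group 2b and at 5292, 4738, 613, 5419.8 and 5351 in group 3. In 4 group 3 libraries GZMB lay between 4738 and 5419.8, and replicate 3, the library with B cell genes at the level of group 2b, was the lowest of all 11. The group difference was 0.22 (interval -1.37 to 1.81). The pore protein PRF1 and the cytokine IFNG differed by -0.09 and 0.02, with intervals of -1.2 to 1.02 and -1.15 to 1.2. These intervals take their spread from all 21 libraries. Over the 11 lymphocyte-enriched libraries alone they were -1.03 to 1.47 for GZMB, -0.80 to 0.62 for PRF1 and -1.03 to 1.08 for IFNG.

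Checkpoint and co-stimulatory genes were measured on both sides of the synapse between T cells and antigen-presenting cells. Of 10 measured members of the B7 and CD28 families, 0 had an unadjusted p under 0.05, beside 6.25% of all probes, and 5 had differences on each side of 0. Of the ligands, CD80 was at 600.2 to 1013 in group 2b and at 569 to 953 in group 3 (-0.03, interval -0.54 to 0.49), and CD86 at 1323 to 3109 and 1806 to 2635 (-0.11, interval -0.60 to 0.37). These intervals lie within 1 log2 unit, a doubling, of 0. CD274, which encodes PD-L1, differed by -0.30 (-0.99 to 0.40). Of the receptors, CD28 differed by 0.21 and ICOS by 0.24. CTLA4 was at 479.6, 923 and 1386 in group 2b and at 681, 1972, 1050.3, 1287 and 2369.9 in group 3 (0.64, interval -0.22 to 1.49). PDCD1, which encodes PD-1, was at 191, 282 and 333 in group 2b and at 435, 504, 250.4, 228 and 469 in group 3 (0.45, interval -0.40 to 1.30). For both receptors group 3 replicates 2 and 5 were above all of group 2b, as was replicate 1 for PDCD1.

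MHC class I, interferon and division genes had medians near 0. The list medians were -0.04 for 12 MHC class I and peptide processing probes, -0.01 for 23 interferon response probes and 0.08 for 13 proliferation probes. In the interferon and the proliferation list, 1 probe each was lower with an unadjusted limma p under 0.05, beside 4.12% of all probes. With equal medians these counts were 0. The class I list had 0 such probes on either scale. B2M (beta-2-microglobulin), which pairs with MHC class I heavy chains and had the highest mean of the panel in these libraries, was at 171901 to 220642 in group 2b and at 181613 to 200858 in group 3 (-0.03, interval -0.43 to 0.37). DLA88, a classical class I heavy chain, was at 14108 to 22081 in group 2b and at 9835 to 25021 in group 3. ISG15, an interferon-induced modifier, differed by 0.96 (interval -0.23 to 2.14) and was highest in replicate 3, with 216, 175, 549, 99.4 and 118 in group 3 against 64.6, 95.6 and 157 in group 2b. MKI67, a marker of dividing cells, was at 639.8, 1030.4 and 1248 in group 2b and at 977, 1568, 515, 1080.0 and 1371 in group 3 (0.12). The 20 reference genes had a median of 0.01. Of 13 measured genes of Langerhans and dendritic cells, the tumor cell lineage, 0 had an unadjusted p under 0.05 in limma, beside 6.25% of all probes. Their median was -0.08. Of 20 macrophage and monocyte genes 1 was higher past that threshold, beside 2.12% of all probes, and the median was -0.02.

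**Figure D4:**
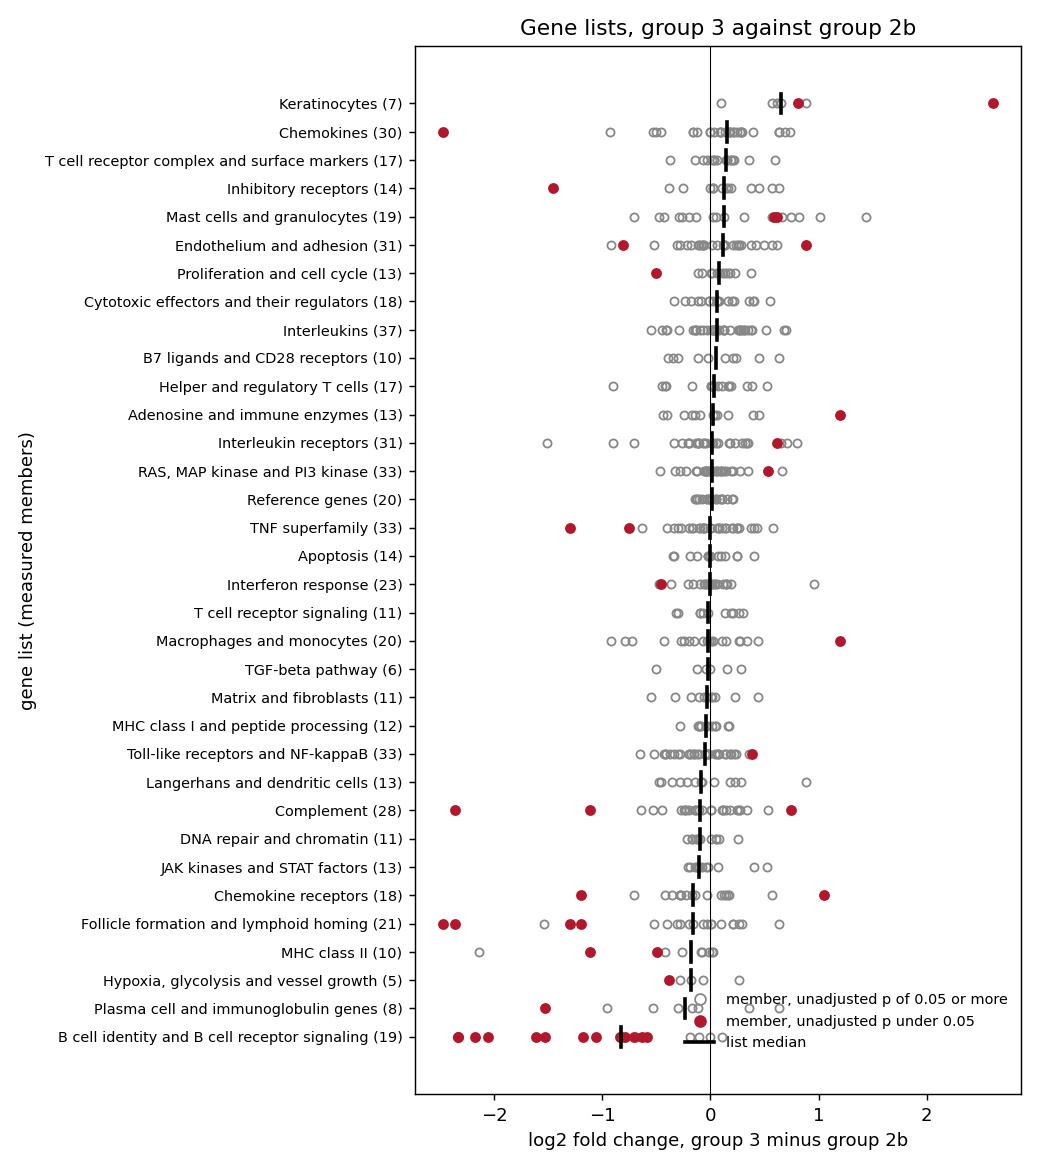
Log2 fold change of group 3 minus group 2b for each measured member of 34 gene lists (number of measured members in brackets), ordered by the list median (black bar). Red points have an unadjusted limma p under 0.05. The B cell list lies lowest with a median of -0.83, and the keratinocyte list highest with 0.65, and the others lie between -0.23 (plasma cell and immunoglobulin genes) and 0.16 (chemokines).

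At the upper end stood genes of the epidermis. All 7 measured members of the keratinocyte list had positive differences, with a median of 0.65 (0.24 without the pools of group 2b). Of these, 2 had an unadjusted p under 0.05, beside 2.12% of all probes higher past that threshold. KRT14, the keratin of basal keratinocytes, was at 21.2, 196 and 1132 in group 2b and at 427, 2414, 201, 669.6 and 3382 in group 3. The spread was large in both groups, and 3 group 3 libraries lay inside group 2b. KRT14 differed by 2.61 (SE 1.13, limma adjusted p = 0.679). TP63, a factor of stratified epithelium, was at 52.6, 88.1 and 138 in group 2b and at 119, 249.9, 187, 109.6 and 147 in group 3 (0.81, SE 0.27, limma adjusted p = 0.254). CDH1, the adhesion protein E-cadherin of epithelium and Langerhans cells, differed by 0.88 (interval -0.33 to 2.09). ITGA2, a collagen-binding integrin chain, was at 11.7, 18 and 25.5 in group 2b and at 27.3, 65.2, 20.5, 27.9 and 42.1 in group 3 (0.89, SE 0.26, limma adjusted p = 0.154). The keratinocyte level was thus higher on average in group 3, in ranges that overlapped, and no probe of the list was called. Summed over the 7 probes, normalized counts were 352 to 1927 in group 2b, 1018 to 4115 in group 3 and 1006 to 6218 in tumor cell-rich tissue. In group 2b the pools of replicates 3, 4 and 5 were lowest, at 373, 352 and 380. The single dogs stood at 851 and 1152, and the pool of replicate 6 was highest. Without the 2 group 3 libraries with KRT14 above 2000, CR2 differed by -1.83 (limma adjusted p = 0.992), the B cell list median was -0.76, and 9 of its 19 members were lower with an unadjusted p under 0.05, against 3.25% of all probes lower and 0.75% higher. The part of epidermis in the B cell differences was not tested further.

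Further probes with the smallest p among the higher ones came from several classes. CCR10, a receptor for chemokines of skin, was at 2.89, 8.29 and 14.4 in group 2b and at 14.9, 29.9, 16.2, 14.9 and 16.2 in group 3 (1.05, SE 0.31, limma adjusted p = 0.160). NOD2, a sensor of bacterial cell walls, was at 7.72, 12.3 and 16.6 in group 2b and at 24.8, 19.9, 30.2, 17.6 and 24.8 in group 3 (0.89, SE 0.28, limma adjusted p = 0.218). Both probes gave few counts, and in both the groups did not overlap. CEBPA, a myeloid and epidermal transcription factor, differed by 0.55, TNFAIP3, a brake on NF-kappaB, by 0.39, the kinase ABL1 by 0.38, the cell cycle inhibitor CDKN2B by 0.63 and the complement protein C8A by 0.74, all with limma adjusted p of at least 0.485. A pair of macrophage-associated genes also had an unadjusted p under 0.05, the enzyme ARG1 (1.2, with 4.82 to 17.5 in group 2b and 15.1 to 61.9 in group 3) and SIGLEC1, a sialic acid receptor (0.81, with 255 to 426 and 346 to 838). ARG1 gave few counts. The 20 measured macrophage and monocyte genes as a list had 9 positive and 11 negative differences, with a median of -0.02.

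Groups without any overlap were rare. On the deposited scale 4 probes (0.5%) separated the groups: CCR10, NOD2 and HAVCR2 lay above group 2b in all group 3 libraries, and HIF1A lay below. With equal medians there were 7 (0.875%): CCR10, NOD2, HAVCR2, ABL1 and NOTCH1 above, and FN1 and IL2RA below. HAVCR2, NOTCH1 and IL2RA are named here because their values separated the groups. HAVCR2 (TIM-3), an inhibitory receptor of T cells and myeloid cells, was at 309, 405 and 435 in group 2b and at 478, 511, 538, 462 and 524 in group 3. Its difference was small, 0.38, and was not called (limma adjusted p = 0.981, or 0.273 over the 11 libraries). HIF1A, the oxygen-sensing factor, was at 2198 to 2468 in group 2b and at 1540.4 to 2063 in group 3 (-0.38, limma adjusted p = 0.693). The matrix protein FN1 differed by -0.55, the interleukin 2 receptor chain IL2RA by -0.90 and the receptor NOTCH1 by 0.17.

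The wide spread of some probes lay in single libraries. The median log2 SD within a group was 0.36 in group 2b and 0.38 in group 3, and 467 of 800 probes (58.4%) had the larger SD in group 3. Pools average over dogs, so the SD of group 2b is not that of single dogs. DLA-DQB1, an MHC class II chain that varies in sequence between dogs, had the largest pooled SD (3.08 on the log2 scale). It was at 11369 to 27541 in group 2b and at 19832, 11554, 14068 and 23821 in 4 group 3 libraries, but at 13.3 in replicate 2. Its group difference was -2.14, and -0.10 without that library. The calgranulins S100A8, S100A9 and S100A12, made by neutrophils and stressed keratinocytes, were also highest in replicate 2. S100A8 was at 176, 1032 and 1496 in group 2b and at 805, 15455, 137, 1531 and 2111 in group 3, and S100A12 at 81.7, 504 and 1103 against 282, 13173, 116, 1279.7 and 1728. These probes differed by 1.01 and 1.44 between groups, and S100A9 by 0.82, with intervals that held 0. Without replicate 2 the differences of S100A8, S100A12 and S100A9 were 0.15, 0.50 and 0.0171, and without replicate 3 they were 1.85, 2.21 and 1.57. MARCO, a scavenger receptor of macrophages, was at 71.3 to 482 in group 2b and at 7.56 in group 3 replicate 3, against 144 to 382 in the other group 3 libraries. The collagenase MMP1 reached 903 in replicate 4 and the secreted protein PIP 795 in replicate 1.

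**Figure D5:**
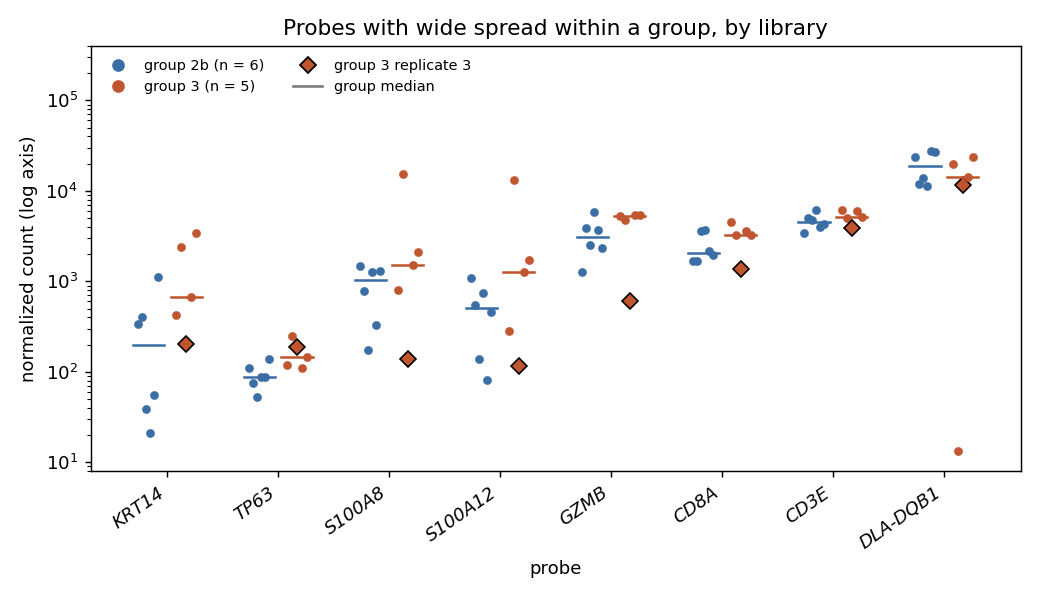
Normalized counts (log axis) of 8 probes in each library of group 2b (blue, n = 6) and group 3 (orange, n = 5), with a line at each group median and a diamond for group 3 replicate 3. Replicate 3 is the lowest library for GZMB at 613, and 1 group 3 library stands at 13.3 for DLA-DQB1.

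The first principal component of the 11 libraries over all probes, which held 27.8% of the variance, ran between these gene groups. The highest loading was that of DLA-DQB1, the probe nearly absent from group 3 replicate 2, which also had the lowest score. Next among the 10 highest were PAX5, MS4A1, CD79B and CR2, and KRT14, S100A12, S100A8 and S100A9 had the 4 lowest. The 6 group 2b libraries scored from 0.27 to 9.43. Group 3 replicates 1, 2, 4 and 5 scored from -16.0 to -1.62, and replicate 3 scored 9.54, the highest of all.

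The precision of the comparison set what could be seen. The 95% interval of a log2 difference had a median half-width of 0.58, and for 505 of the 800 probes (63.1%) the whole interval lay within 1 log2 unit of 0. Over the 11 libraries alone the half-width was 0.52, and this held for 594 probes. Among the other probes, some had the whole interval beyond 1 log2 unit from 0, CR2 among them. Over the 11 libraries alone, the intervals of CR2 (-3.55 to -1.18) and CD79B (-3.66 to -1.01) lay there. For the probes whose intervals crossed 1 log2 unit from 0, a doubling between the groups was not excluded at this number of libraries.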

How the data were processed

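RNA extracted from FFPE scrolls was hybridized to the panel, and the authors ran quality control and normalization in nSolver at default settings. The deposited values are signal: normalized counts on a linear scale, 1 per probe and library, with low values raised to 1. They were whole multiples of 1 step per library (tolerance 0.01), from which totals were estimated. All columns were assigned to a sample by title (0 unmapped), and no 2 libraries were identical. Sampling of separate dogs is given for single-dog libraries only, and pools counted as 1 library.

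Each probe was tested in limma 3.58.1 (R 4.3.3; lmFit, then eBayes with its trend option), with values entered as log2(value + 1) and 4 group means over all 21 libraries. The tests were two-sided, and p values were adjusted over 800 probes by the Benjamini-Hochberg method. Library measures were compared by exact permutation (scipy 1.17.1). The script was tested on simulated data. The named probes were those called, those of smallest p, largest difference or largest spread (the last 2 among probes with a mean of at least 50), and the highest, defining or unadjusted p under 0.05 members of 34 gene lists. GH1, PRDM1, CCL19, CCL21, SIGLEC1, HAVCR2, IL2RA and NOTCH1 were chosen after their values were seen. Members, lists and rules were chosen with earlier results of these data known. Alternatives were equal medians, quantile normalization, a pseudocount of 16, a minimum mean of 20, only 11 libraries, weights by dogs, libraries left out, DV200 as a covariate and a replicate block. Results that name withheld items are not reported here.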

Additional observations from a re-analysis of the deposited data

Results flagged for a closer look

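A library far from the others of its group was found in 12 of 152 sets of values. The sets were the named probes in groups 2b and 3, some of them named for wide spread or after their values were seen. The usual rate of about 1 in 20 by chance therefore does not apply to them. In group 3 replicate 3, GZMB was the lowest of its group at 613 (next 4738), CD8A at 1384 (next 3226) and MARCO at 7.56 (next 144), while CIITA was the highest at 3372 (next 2272). In group 3 replicate 2, DLA-DQB1 was the lowest at 13.3 (next 11554) and CCR10 the highest at 29.9 (next 16.2). CCL19 was the lowest in group 3 replicate 1 at 280.3 (next 606).

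In group 2b, replicate 2 was the lowest for CXCL13 at 1989 (next 6169) and the highest for CD274 at 1147 (next 571). Both values came from a single dog. Replicate 3, a pool of 4 dogs, was the highest for POU2AF1 at 962 (next 621) and the lowest for CD86 at 1323 (next 2525). Replicate 5, also a pool, was the highest for IGHM at 14078 (next 7859.9).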

How the results depend on the processing

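The number of called probes (1 on the deposited scale, 1 with equal medians) was the same after quantile normalization and with a minimum mean of 20. On the 2 scales it was 6 and 3 with a pseudocount of 16, and 9 and 4 with weights by the number of dogs. It was 0 on both scales with only the 11 libraries (smallest limma adjusted p = 0.173 on the deposited scale), without the 4 pools, without the 2 single dogs of group 2b, with DV200 as a covariate, and, chosen after seeing the data, without the 2 libraries of high KRT14. Leaving out 1 library at a time gave 0 to 18 called probes on the deposited scale and 0 to 16 with equal medians. The sign of the CR2 difference held in all 22 alternatives, with limma adjusted p from 0.000108 to 0.999. Replicate numbers name samples here and pair none of them: the deviations of same-numbered libraries correlated between -0.231 and 0.202, and with a replicate block 0 probes were called on both scales (CR2 -2.45, limma adjusted p = 0.0747). Of 76 named probes, 60 kept their sign in all 22 alternatives. The medians of all probes and of the B cell, T cell and keratinocyte lists moved by less than the spread between libraries, though without the single dogs the T cell median was -0.04, and without the pools the T cell and keratinocyte medians were 0.37 and 0.24. Count-based tests that had been planned were not run, since whole counts could be recovered beyond doubt in some libraries only. The cause of these changes was not tested, beyond the fewer libraries that some fits hold.

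The sign changes were mostly in probes near 0. CD80 went from -0.03 to 0.0018 with equal medians, 0.0056 after quantile normalization, 0.10 with weights, 0.15 without the single dogs, 0.0759 with DV200, and 0.13 without the libraries of high KRT14. With weights PRF1 was at 0.00068 and IFNG at -0.0170. Without the single dogs PRF1 was at 0.0387, IFNG at -0.0417 and MMP1 at 0.19, and with DV200 IFNG was at -0.0892 and B2M at 0.0349. With the replicate block B2M was at 0.00303. Without the pools CD4 was at 0.19, PIP at -0.12, FOXP3 at -0.24 and CCL21 at -0.43. Without the libraries of high KRT14, CD4 was at 0.36, GZMB at -0.16, IFNG at -0.68, MKI67 at -0.22, S100A8 at -0.33, S100A9 at -0.56 and S100A12 at -0.0742. With 1 library left out at a time, differences on both sides of 0 were found for CD4 (-0.33 to 0.0815), GZMB (-0.0235 to 0.83), PRF1 (-0.30 to 0.0840), IFNG (-0.34 to 0.43), CD80 (-0.10 to 0.0868), MARCO (-1.15 to 0.22), MMP1 (-1.05 to 0.19), FOXP3 (-0.0421 to 0.30), B2M (-0.0659 to 0.00615), DLA88 (-0.23 to 0.10), MKI67 (-0.0308 to 0.37) and CCL21 (-0.0414 to 0.55).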

Other observations

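GH1, which encodes growth hormone, stood among the B cell genes. It was at 85.1, 133 and 226 normalized counts in group 2b (lowest, median and highest) and at 33.5, 39.8, 149, 60.4 and 20.5 in group 3 replicates 1 to 5, with a log2 difference of -1.43 (SE 0.39, limma adjusted p = 0.127). Within the groups its deviations correlated with those of CD79B over the 11 libraries (r = 0.964), and about as closely with those of MS4A1 (r = 0.949), which lies on another chromosome. Both values are descriptions across libraries that share group 3 replicate 3 as an extreme. In the dog annotation UU_Cfam_GSD_1.0 GH1 and CD79B are neighbors with 0 genes between them.

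TRGC8, a T cell receptor gamma constant gene of the panel, was present or nearly absent by library, in an order unlike that of CD3E. It was at 1.06, 1.20, 106, 147, 42.0 and 35.7 normalized counts in group 2b replicates 1 to 6, so that both single-dog libraries stood at about 1 normalized count and the 4 pools above it. In group 3 it was at 21.1, 16.6, 1.08, 35.3 and 139, where replicate 3 was again the library that stood apart. The other gamma constant probes did not share this order: TRGC2 was at 359 and TRGC3 at 661 in group 3 replicate 3. TRGC2 was highest in group 3 replicate 1 at 1898, against 222 to 582 in the other 10 libraries, and that library also had the highest KLRD1 (CD94), a receptor of natural killer and some T cells, at 1589. The group differences of TRGC8, TRGC2, TRGC3 and KLRD1 had intervals that held 0. These probes and GH1 were named after their values were seen, and near-identical constant genes can share a probe's signal.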
